A study of Mus musculus with 13 samples.

Results

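The peaks of accessible chromatin at 7 inflammatory cytokine genes of mouse microglia were examined: Tnf, Il1b, Il1a, Il1rn, Il6, Il12a and Il12b. A peak was taken as a member where its nearest transcription start site belonged to 1 of these genes and lay no more than 50 kb away. This rule took 34 of the 38620 peaks in the deposited table, and all 34 passed the filter on low counts. Il1a and Il12a had 7 peaks each, Il1b had 6, Il6 and Il12b had 5 each, and Tnf and Il1rn had 2 each. Peaks within 1 kb of a start site were present at Tnf (1), Il1a (2), Il1rn (1), Il6 (1) and Il12b (1), while Il1b and Il12a had none.

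TNF and the interleukin 1 proteins are alarm cytokines that macrophages release early in infection, and IL-6 carries the alarm to other cells and tissues. Il1a and Il1b encode agonists of the interleukin 1 receptor, and Il1rn encodes the antagonist that occupies the same receptor without signalling. Il12a and Il12b encode the p35 and p40 subunits, which pair to form IL-12, a cytokine that drives interferon gamma production by T and NK cells. LPS, a bacterial cell wall component, switches these genes on in macrophages through Toll-like receptor 4, with NF-kB and AP-1 among the transcription factors used. ATAC-seq marks open chromatin, where such factors can bind, by the insertion of a transposase. It does not measure the RNA.

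Microglia were sorted as DAPI-, CD11b high, CD45 intermediate and Ly6c- cells from C57BL/6J males that were 15 weeks old. Every animal had an intraperitoneal injection at 10 weeks, oral dosing with BLZ945 or vehicle for 5 days from a week later on, and a final injection when 5 weeks had passed since the first. Collection followed the final injection by 3 hours. BLZ945, dosed at 169 mg/kg per day, inhibits CSF1R, whose signal keeps microglia alive. Microglia are lost under it, and new ones later refill the brain. Injections held PBS or LPS (Escherichia coli O111:B4) at 1 mg/kg. Group names list the treatments in order: P is PBS, L is LPS and B is BLZ945. PP (PBS, vehicle, PBS) and PBP (PBS, BLZ945, PBS) were the unchallenged groups. PL (PBS, vehicle, LPS) and PBL (PBS, BLZ945, LPS) met LPS for the first time before collection. LL (LPS, vehicle, LPS) and LBL (LPS, BLZ945, LPS) met it for the second time. PBL had 3 libraries and the other groups had 2 each, and each library pooled 40000 cells from each of 2 animals, so the spread is between pools.

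The 13 libraries held between 927840 and 2772688 counts in peaks, and a member peak held between 1.5 and 196.5 counts in a library, so that the lowest peaks were imprecise. PP, PBP and PL were sorted on 1 instrument and PBL, LL and LBL on another, so instrument and group cannot be told apart in PBL vs PBP, LL vs PL, LL vs PP, LBL vs PBP and PBL vs PL. PBL, LL and LBL were each isolated on a day of their own, so day and group cannot be told apart in LBL vs PBL and LBL vs LL either. PP was isolated on the same day as PL 3_4, and PBP on another day with PL 1_2, so PBP vs PP also sets a day against a day. PL 3_4 stood apart, with 53.2% of its counts in promoter peaks against 55.5 to 60.1% in the other libraries. Of 8 microglia marker genes 7 had a peak within 1 kb of the start site. Their summed level, in CPM (the count relative to the scaled total of its library), was 360 to 402 in PP, 423 to 475 in PBP, 277 to 298 in PL, 279 to 300 in PBL, 345 to 357 in LL and 341 to 394 in LBL, so it was lower in the groups at their first LPS, and its part in the results was not tested. Of 5 border macrophage markers only Mrc1 had such a peak (4.63 to 9.10 CPM), and none of the 11 monocyte, neutrophil and lymphocyte markers had one. In these bulk samples, opening in more cells and wider opening in each cell cannot be told apart.

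At Tnf and Il1rn the start site peak was called in PBL vs PBP, while at Il6 it was called in no comparison. Promoter sequences are therefore shown for these 3 genes. Each is the 250 bases before a start site from RefSeq (GRCm38.p6), written 5′ to 3′ on the gene's own strand, with capitals for matches to the motifs named after them. The windows are Tnf at chr17:35202008-35202257 on the minus strand, Il1rn at chr2:24345041-24345290 on the plus strand, before the most upstream of the start sites beneath its peak, and Il6 at chr5:30012864-30013113 on the plus strand. The Tnf and Il6 windows lay wholly inside their peaks, and 214 of the 250 bases did for Il1rn.
Tnf: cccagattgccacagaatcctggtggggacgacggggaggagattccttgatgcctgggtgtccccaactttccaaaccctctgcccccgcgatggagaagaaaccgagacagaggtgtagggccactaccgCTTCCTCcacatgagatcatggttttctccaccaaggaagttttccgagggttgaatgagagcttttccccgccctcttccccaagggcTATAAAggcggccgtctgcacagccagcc
Il1rn: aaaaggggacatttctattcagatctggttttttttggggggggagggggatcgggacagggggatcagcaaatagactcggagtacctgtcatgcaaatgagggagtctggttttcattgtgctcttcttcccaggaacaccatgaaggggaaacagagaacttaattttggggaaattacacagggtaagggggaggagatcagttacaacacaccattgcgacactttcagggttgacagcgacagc
Il6: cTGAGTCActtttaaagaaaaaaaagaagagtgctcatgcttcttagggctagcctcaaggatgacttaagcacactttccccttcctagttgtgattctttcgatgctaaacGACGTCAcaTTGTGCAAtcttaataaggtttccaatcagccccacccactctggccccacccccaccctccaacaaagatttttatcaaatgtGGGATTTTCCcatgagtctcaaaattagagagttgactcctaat
The motifs were searched on both strands, and no matches overlapped each other in these windows. They were PU.1 (GAGGAAG), the TATA box (TATAAA), AP-1 (TGANTCA), C/EBP (TTGCNNAA), the core of the cyclic AMP response element (GACGTCA), IRF (GAAANNGAA) and NF-kB by its consensus. Counted from the base before the start site as -1, the Tnf window held PU.1 at -118 to -112 and a TATA box at -29 to -24. The Il6 window held AP-1 at -249 to -243, the cyclic AMP element core at -137 to -131, C/EBP at -128 to -121 and NF-kB at -44 to -35. The Il1rn window held none of these letters. Over 32851 RefSeq promoter windows of the same length, 10.6% held the PU.1 letters, 12.4% the TATA box, 6.75% AP-1, 9.56% C/EBP, 2.78% the cyclic AMP element core, 7.13% IRF and 7.25% NF-kB. Each match is given as a description.

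The first encounter with LPS was compared with PBS without depletion (PL vs PP) and after depletion and repopulation (PBL vs PBP). These comparisons share no library. Accessibility rose at 6 of the 34 peaks in PL vs PP (17.6%) and at 10 in PBL vs PBP (29.4%), and no member peak fell in either. Among all 37516 peaks tested, the calls were 7.46% in PL vs PP, and for PBL vs PBP they were 9.96%. Calls required an adjusted p under 0.05 in edgeR's quasi-likelihood test, adjusted over all peaks, and every adjusted p below comes from that fit unless another is named. The 6 peaks called in PL vs PP were 1 each at Tnf, Il1a, Il1rn, Il6, Il12a and Il12b. All 6 were also called in PBL vs PBP, where they made up 60% of the calls. The matching share among all called peaks was not counted, so this overlap is not shown to be particular to these genes. The median log2 fold change of the members was 0.31 in PL vs PP, against 0.01 for all peaks, and 0.38 in PBL vs PBP, against -0.003 for all peaks. Most of the called peaks lay away from the start sites, 5 of 6 in PL vs PP and 8 of 10 in PBL vs PBP, as did 28 of the 34 members.

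The PL vs PP count was sensitive to single libraries. It was 1 without PP 1_2 or without PP 3_4, with only the Il12a peak left, and 3 without PL 3_4, LBL 1_2 or LBL 3_4. In PBL vs PBP, 6 of the 10 calls held with any single library left out, namely those at Tnf (1109 bp inside the gene), Il1a (28071 bp upstream), Il6 (26433 bp downstream), Il12a (13257 bp upstream) and Il12b (18823 and 9470 bp upstream). The names of PBL 3_4 and PBL 4_5 both include an animal 4, and the labels do not say whether it is the same one. Without PBL 3_4 the count was 7 and without PBL 4_5 it was 9.

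**Figure D1:**
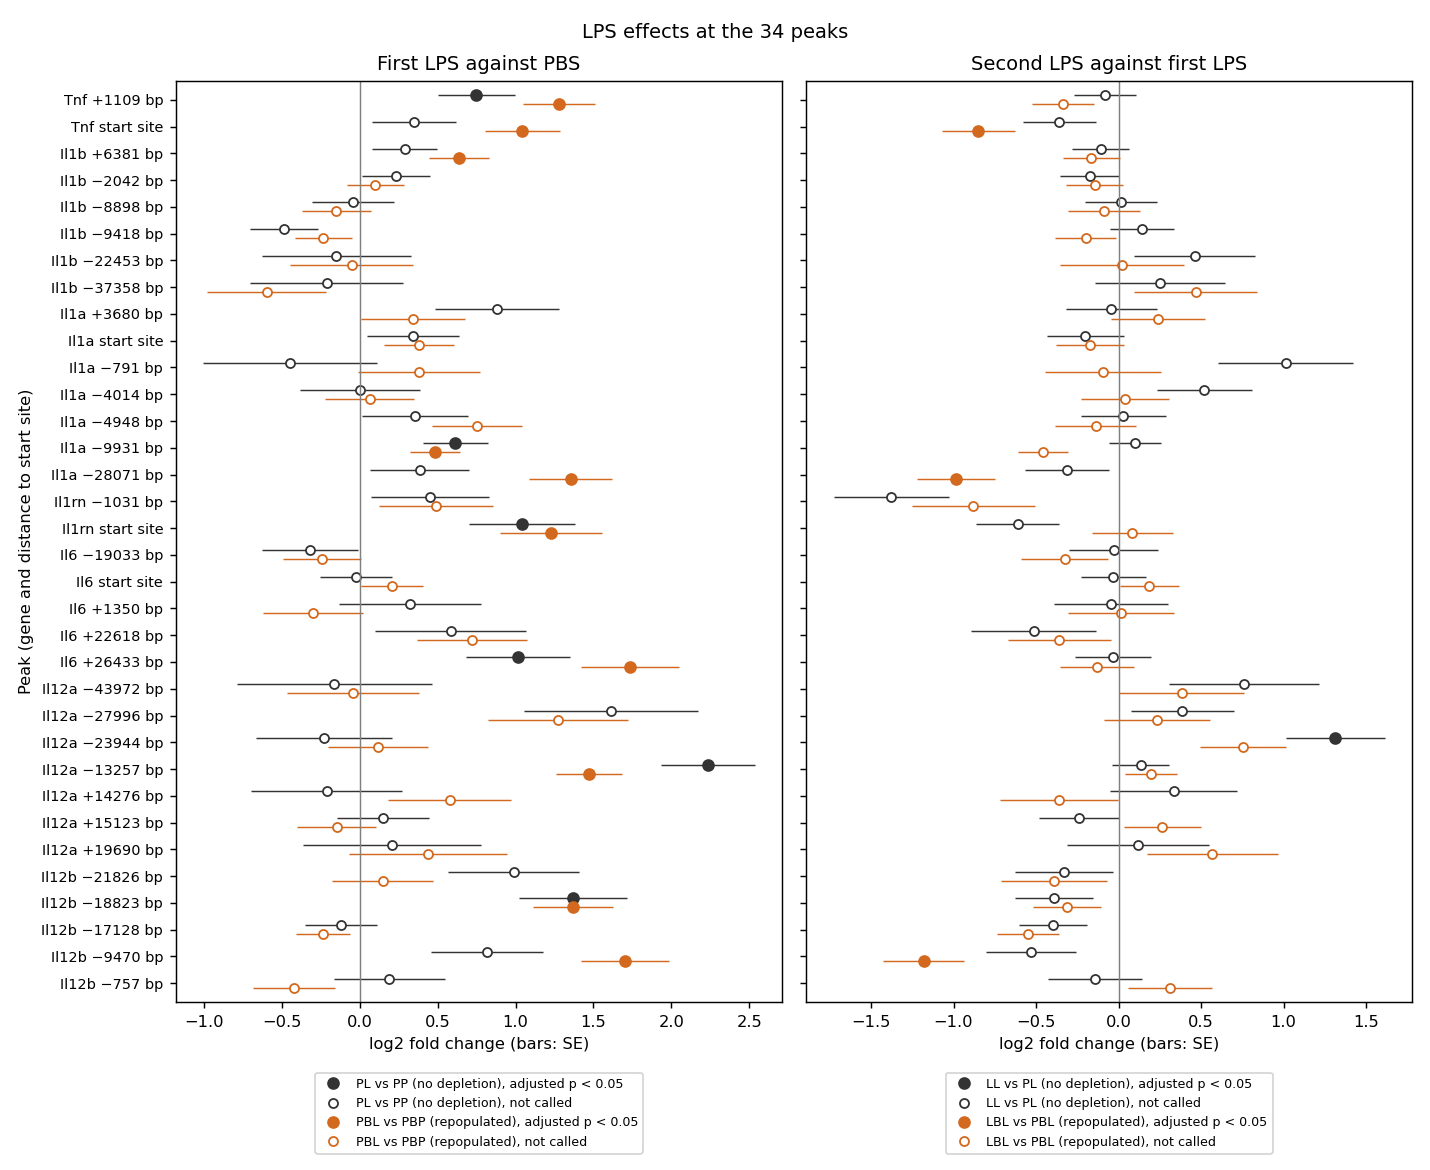
Log2 fold change (x axis, bars are SE) of the 34 peaks (y axis, by gene and distance to the start site in bp) for the first LPS against PBS (left) and the second LPS against the first (right), without depletion in dark grey and after repopulation in orange. Filled points passed an adjusted p of 0.05: 6 and 10 on the left, 1 and 3 on the right.

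Tnf had a peak over its start site and another in exon 3 of 4 (chr17:35200414-35200895). The exonic peak stood at 24.2 and 25.9 CPM in PP, 17.7 and 12.8 in PBP, 48.6 and 36.2 in PL, and 35.1, 41.6 and 35.9 in PBL. Every library at its first LPS was above every unchallenged library. Its log2 fold change was 0.75 ± 0.25 (SE, adjusted p = 0.043) in PL vs PP and 1.28 ± 0.23 (adjusted p = 1.2e-05) in PBL vs PBP. The PL vs PP call held in 4 of 13 fits that each left out a library, namely without PL 3_4 or any 1 PBL library. It was lost in DESeq2, with RLE factors and with isolation day as a term. It was also lost with the LBL libraries summed and with only the compared groups in the fit. At the start site (chr17:35201664-35202282), whose sequence is given above, the levels were 27.3 and 23.0 CPM in PP, 22.6 and 9.05 in PBP, 33.2 and 30.9 in PL, and 42.1, 38.9 and 24.9 in PBL. The PL libraries were above PP by a log2 fold change of 0.35 ± 0.27 (adjusted p = 0.49), which was not called. PBL was higher than PBP by 1.04 ± 0.24 (adjusted p = 0.00086), but this call rested on PBP 3_4, the lowest library, without which the value was 0.58 (adjusted p = 0.26). Without PBP 1_2 it was 1.88.

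Il1b, the gene for the secreted interleukin 1 agonist, showed little movement at the 6 peaks assigned to it. None passed the test in PL vs PP, where the log2 fold changes ran from -0.49 to 0.29. In PBL vs PBP only the peak 3599 bp beyond the end of the gene (chr2:129360086-129360970) rose. It stood at 24.4 and 32.4 CPM in PBP and at 49.2, 45.3 and 38.9 in PBL, with no overlap, and the log2 fold change was 0.64 ± 0.19 (adjusted p = 0.018). PP, at 40.0 and 43.9 CPM, lay within the range of PBL. Over all libraries the peak 2042 bp upstream stood between 35.7 and 51.1 CPM, that 9418 bp upstream between 30.5 and 51.3, and that 8898 bp upstream between 20.3 and 29.5. The peaks 22453 and 37358 bp upstream were weak, at 5.33 to 8.98 and 4.21 to 9.98 CPM. None of these upstream peaks was called in any comparison. The call at the peak beyond the end of the gene was lost in DESeq2 and without PBP 1_2, PBL 1_2 or PBL 3_4.

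Il1a, the gene for the other agonist, changed at distal peaks while its start site peak, at 16.5 to 30.9 CPM over all libraries, did not pass the test. The peak 28071 bp upstream (chr2:129338043-129338776), between Il1a and Il1b, stood at 14.7 and 17.0 CPM in PP, 10.4 and 11.3 in PBP, 16.6 and 24.5 in PL, and 35.1, 25.0 and 25.7 in PBL. The 3 PBL libraries were the highest of all 13. The log2 fold change was 1.35 ± 0.27 (adjusted p = 6.8e-05) in PBL vs PBP and 0.38 ± 0.32 (adjusted p = 0.52) in PL vs PP. A test of the difference between these responses gave 0.97 ± 0.43 (adjusted p = 0.37), so they were not shown to differ. This peak lies about midway between the Il1a gene body, which ends at 129310186, and that of Il1b, which begins at 129364569. It was assigned to Il1a by its nearest start site and counts in the Il1a locus sum. Which gene it serves was not tested. The peak 9931 bp upstream was the most accessible of the gene, at 38.9 and 37.9 CPM in PP and 51.0 and 66.0 in PL. It rose by 0.61 ± 0.21 (adjusted p = 0.0499) in PL vs PP and by 0.48 ± 0.16 (adjusted p = 0.037) in PBL vs PBP, both close to the threshold. The first of these was called in 1 of 13 fits that each left out a library, and the second in 5 of 13. Both were lost in DESeq2 and with the LBL libraries summed. The first was also lost with RLE factors and with only the compared groups in the fit, and the second with the pool-name block. The other Il1a peaks were not called in any comparison. They lay 3680 bp inside the gene (4.99 to 16.1 CPM over all libraries) and 791, 4014 and 4948 bp upstream (2.37 to 11.7, 7.36 to 17.97 and 9.05 to 24.1 CPM).

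Il1rn, which encodes the receptor antagonist, rose at the peak over its downstream start sites (chr2:24345077-24345514). The levels were 10.5 and 12.0 CPM in PP, 7.32 and 6.79 in PBP, 21.9 and 24.5 in PL, and 17.6, 20.8 and 12.8 in PBL. No library at its first LPS overlapped an unchallenged one. The log2 fold change was 1.04 ± 0.34 (adjusted p = 0.039) in PL vs PP and 1.23 ± 0.33 (adjusted p = 0.0054) in PBL vs PBP. Leaving out PP 1_2, PP 3_4 or PL 3_4 ended the first call, and leaving out PBP 1_2, PBP 3_4 or PBL 3_4 ended the second. The first was also lost with only the compared groups in the fit, and the second in DESeq2. The other Il1rn peak, 1031 bp before the upstream start site, was not called in any comparison. It stood between 3.90 and 18.1 CPM over all libraries, with 9.49 and 18.1 in PL and 6.99 and 4.02 in LL. Its log2 fold change in LL vs PL was -1.38 ± 0.35 (adjusted p = 0.091).

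At Il6 the called peak lay far from the gene, and the promoter peak was not called in any comparison. The start site peak (chr5:30012813-30013707), whose sequence with its NF-kB, C/EBP and AP-1 letters is given above, stood between 29.3 and 40.1 CPM in all 13 libraries. Its log2 fold change was -0.03 ± 0.23 (adjusted p = 0.97) in PL vs PP and 0.21 ± 0.20 (adjusted p = 0.62) in PBL vs PBP. The peak 19779 bp beyond the end of the gene (chr5:30039754-30040256) stood at 14.7 and 9.98 CPM in PP, 5.49 and 9.05 in PBP, 19.0 and 30.4 in PL, and 21.1, 19.0 and 29.3 in PBL. All LPS libraries lay above all PBS libraries. The log2 fold change was 1.02 ± 0.33 (adjusted p = 0.041) in PL vs PP. That call was lost without PP 1_2, PP 3_4, PL 3_4, LBL 1_2 or LBL 3_4. It was also lost in DESeq2, with the LBL libraries summed and with only the compared groups in the fit. In PBL vs PBP the log2 fold change was 1.73 ± 0.31 (adjusted p = 1.0e-05), and that call held with each library left out. The peaks 19033 bp upstream (10.4 to 23.2 CPM over all libraries), 1350 bp inside the gene (6.09 to 13.4) and 22618 bp downstream of the nearest start site (3.56 to 14.4) were not called in any comparison.

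Il12a held the member peak with the smallest p in both first LPS comparisons. This peak, 13257 bp upstream of the start site (chr3:68676856-68677387) in intergenic sequence, stood at 6.31 and 14.0 CPM in PP, 17.1 and 19.6 in PBP, 42.1 and 54.3 in PL, and 45.0, 59.2 and 46.9 in PBL. After the second LPS it stood at 57.9 and 49.1 CPM in LL and 55.9 and 59.9 in LBL. Every LPS library was above every PBS library. The log2 fold change was 2.23 ± 0.30 (4.71-fold, adjusted p = 1.3e-08) in PL vs PP and 1.47 ± 0.21 (2.77-fold, adjusted p = 2.7e-08) in PBL vs PBP. Without PP 3_4, the higher PP library, the PL vs PP value was 2.90. The peak was called in both comparisons under every alternative setting tried, and the difference between the responses was -0.76 ± 0.41 (adjusted p = 0.48). The peak 27996 bp upstream held few counts, between 1.5 and 5.5 in each PBS library and between 10.0 and 29.5 in each LPS library. Its log2 fold changes of 1.61 ± 0.56 (adjusted p = 0.056) and 1.27 ± 0.45 (adjusted p = 0.052) were not called at the first LPS. The 3 peaks downstream of the gene, 14276, 15123 and 19690 bp from the nearest start site, stood at 4.53 to 9.72, 12.6 to 22.6 and 1.51 to 7.62 CPM over all libraries, and were not called in any comparison.

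Il12b, which encodes the p40 subunit, rose at intergenic peaks upstream of the gene. The peak 18823 bp upstream (chr11:44380728-44381240) stood at 9.47 and 9.98 CPM in PP, 14.0 and 8.30 in PBP, 24.9 and 25.6 in PL, and 25.3, 31.5 and 30.8 in PBL. The log2 fold change was 1.37 ± 0.34 (adjusted p = 0.0048) in PL vs PP and 1.37 ± 0.26 (adjusted p = 3.1e-05) in PBL vs PBP. Without PP 1_2 or without PP 3_4 the first call was lost. The peak 9470 bp upstream (chr11:44389939-44390593) stood at 10.5 and 12.0 CPM in PP, 12.2 and 5.28 in PBP, 17.8 and 21.8 in PL, and 20.4, 34.2 and 31.5 in PBL. It rose by 1.70 ± 0.28 (adjusted p = 1.5e-06) in PBL vs PBP, or by 2.46 without PBP 1_2, and was 0.82 ± 0.36 (adjusted p = 0.16) in PL vs PP. The promoter peak, 757 bp upstream, and the most accessible peak, 17128 bp upstream, were not called at the first LPS. Over all libraries the promoter peak stood between 11.7 and 19.6 CPM. The peak 21826 bp upstream, at 4.21 to 16.0 CPM over all libraries, was not called in any comparison.

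**Figure D2:**
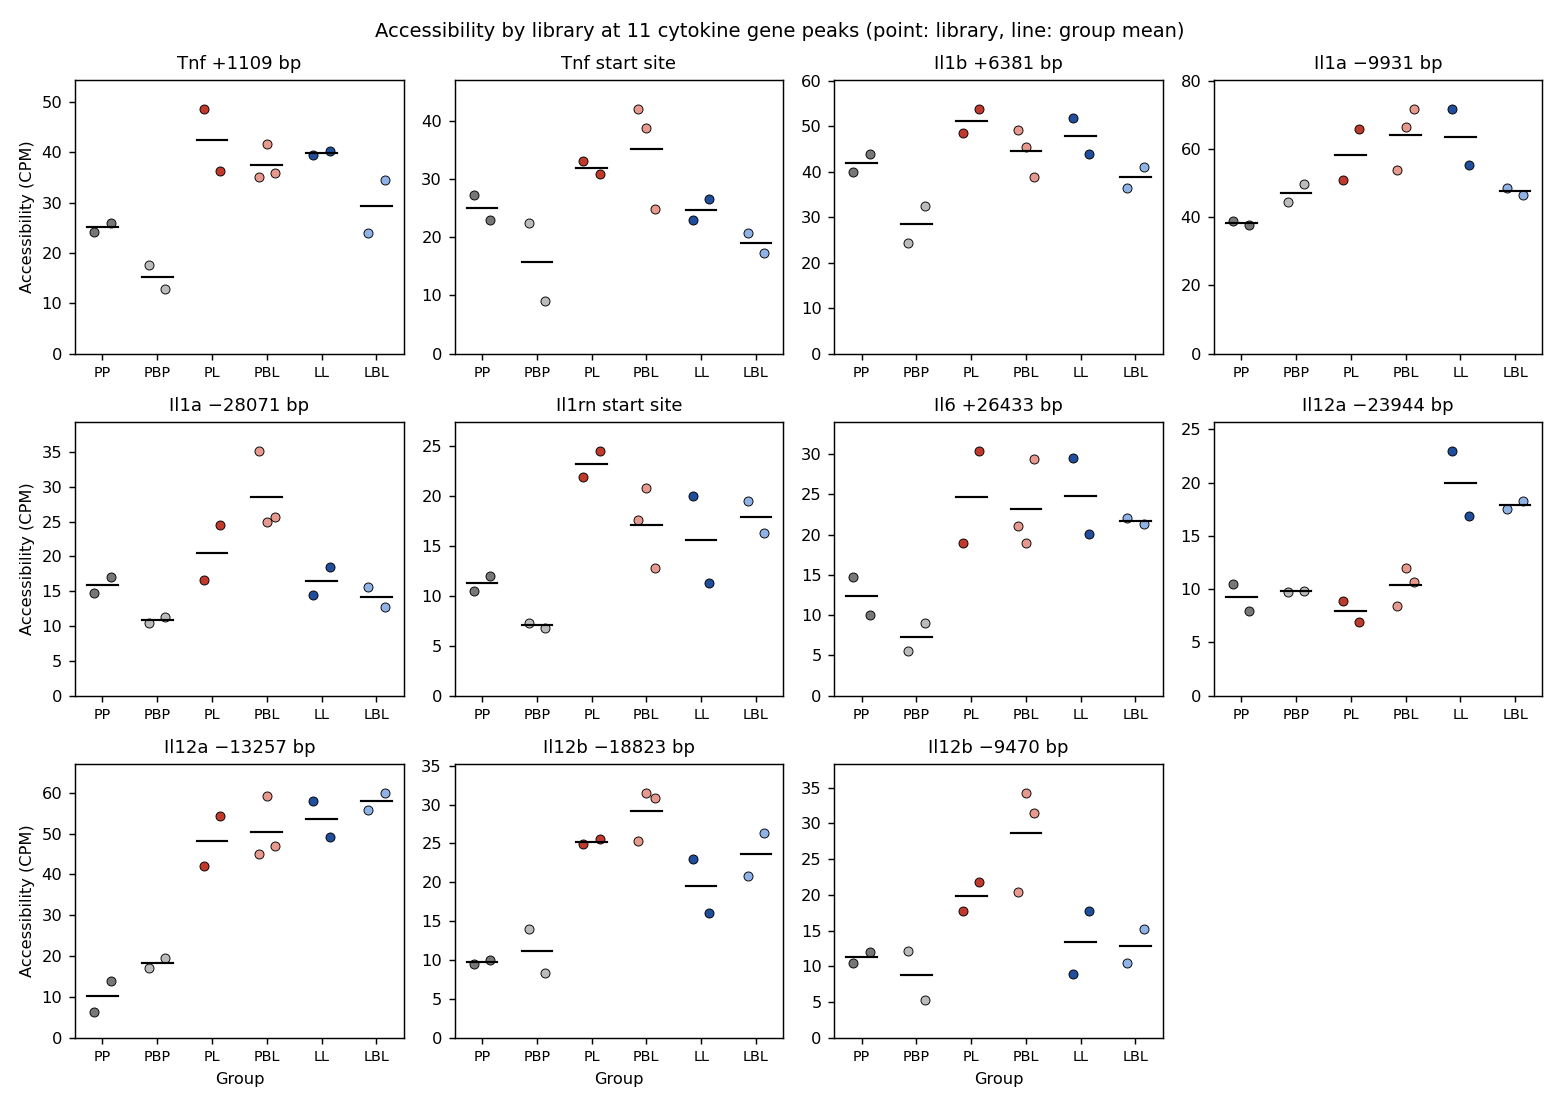
Accessibility in CPM (y axis, from 0) at 11 of the peaks (those called in PBL vs PBP or LL vs PL) in each library (points) of the 6 groups (x axis), with the group mean as a line. At the Il12a peak 13257 bp upstream the 9 LPS libraries lie between 42.1 and 59.9 CPM and the 4 PBS libraries between 6.31 and 19.6.

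**Figure D3:**
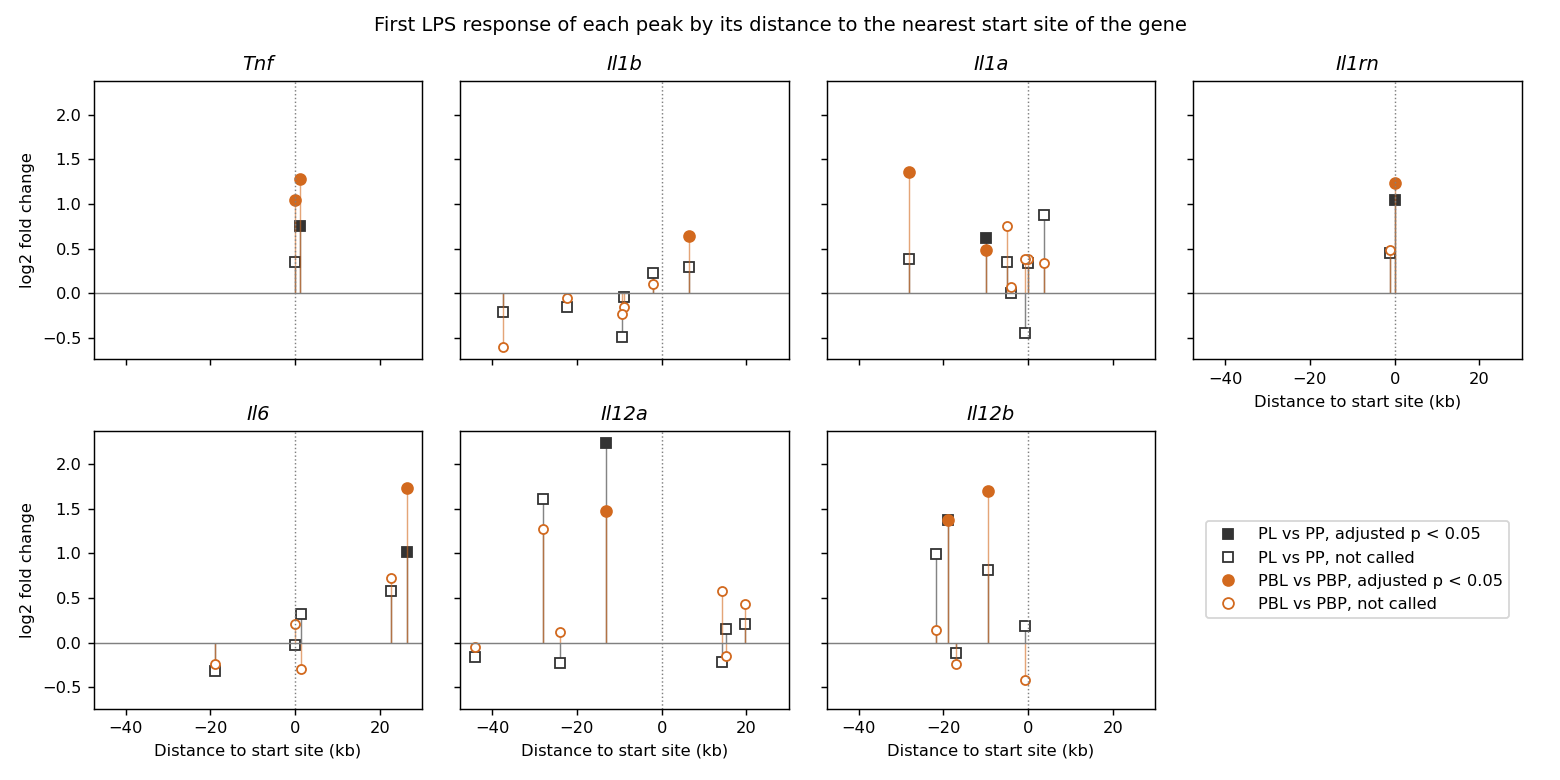
Log2 fold change at the first LPS (y axis) of each peak against its distance to the gene's start site in kb (x axis, negative is upstream), with squares for PL vs PP and circles for PBL vs PBP, filled where called. Of the filled points, 5 of 6 squares and 8 of 10 circles lie farther than 1 kb from a start site.

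The second LPS was compared with the first without depletion (LL vs PL) and after it (LBL vs PBL), the comparisons that bear on whether the earlier challenge left a trace. Accessibility rose at 1 member peak in LL vs PL, where 0.064% of all peaks were called, and fell at 3 in LBL vs PBL, where 1.9% were called. The peak that rose was the Il12a peak 23944 bp upstream (chr3:68666421-68666700). It stood at 10.5 and 7.98 CPM in PP, 9.76 and 9.81 in PBP, 8.89 and 6.92 in PL, 8.43, 12.0 and 10.6 in PBL, 23.0 and 16.9 in LL, and 17.5 and 18.3 in LBL. It was thus at the level of the PBS groups after a first LPS and above every other library after a second, in both arms. The peak was picked by LL vs PL, so the separation of LL from PL adds nothing to the call. The log2 fold change was 1.31 ± 0.30 (adjusted p = 0.037) in LL vs PL and 0.76 ± 0.26 (adjusted p = 0.11) in LBL vs PBL, and only the first was called. The LL vs PL call was lost in DESeq2 and without PL 3_4, LL 1_2 or LL 3_4. It was also lost with the LBL libraries summed and with only the compared groups in the fit. LL and PL were sorted on different instruments. Without PL 1_2 the count was 2.

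The 3 peaks that fell in LBL vs PBL were the Il12b peak 9470 bp upstream, the Il1a peak 28071 bp upstream and the Tnf start site peak. All had risen in PBL vs PBP, and both comparisons use the PBL libraries, so the rise and the fall are not independent. The Il12b peak stood at 10.4 and 15.2 CPM in LBL, against 20.4 to 34.2 in PBL, a log2 fold change of -1.18 ± 0.24 (adjusted p = 0.0015). The Il1a peak stood at 15.6 and 12.7 CPM in LBL, against 25.0 to 35.1 in PBL, a log2 fold change of -0.98 ± 0.24 (adjusted p = 0.0093). The Tnf start site peak stood at 20.8 and 17.3 CPM in LBL, against 24.9 to 42.1 in PBL, a log2 fold change of -0.85 ± 0.22 (adjusted p = 0.019). In each case the LBL and PBL libraries did not overlap, but the peaks were picked by this comparison, so this adds nothing to the calls. The groups shared a sorter and differed in isolation day. DESeq2 called none of the 3, none held without LBL 1_2, and 1 held without LBL 3_4 or without PBL 1_2, at Il12b. In LL these peaks stood at 8.98 and 17.7 CPM (Il12b), 14.5 and 18.5 (Il1a) and 23.0 and 26.6 (Tnf). Their log2 fold changes in LL vs PL were -0.53 ± 0.27 (adjusted p = 0.65), -0.31 ± 0.25 (adjusted p = 0.83) and -0.36 ± 0.22 (adjusted p = 0.73). No member peak passed a test of the difference between LBL vs PBL and LL vs PL, for which 0% of all peaks were called. DESeq2 also called 0 members there, and 2 had an unadjusted p under 0.05.

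Against the unchallenged groups, twice-challenged microglia had 5 higher and 0 lower member peaks in LL vs PP and 6 higher and 1 lower in LBL vs PBP, where 6.13% and 4.82% of all peaks were called. These comparisons share their PBS libraries with the first LPS comparisons. The Il12a peak 13257 bp upstream was higher by 2.37 ± 0.29 (adjusted p = 1.9e-10) in LL vs PP and 1.67 ± 0.22 (adjusted p = 7.9e-09) in LBL vs PBP, and was the only member called under every alternative in either. Without PP 3_4 the LL vs PP value was 3.04. The Il12a peak 27996 bp upstream was called in both, at 2.00 ± 0.51 (adjusted p = 0.0065) and 1.50 ± 0.48 (adjusted p = 0.042). The distal Il6 peak was also called in both, at 0.98 ± 0.33 (adjusted p = 0.049) and 1.60 ± 0.35 (adjusted p = 0.00067). It stood at 29.4 and 20.1 CPM in LL and 22.1 and 21.3 in LBL. Its LL vs PP call was lost in DESeq2, with RLE factors, with no filter and with the LBL libraries summed. Also called in LL vs PP were the Il12a peak 23944 bp upstream (1.09 ± 0.35, adjusted p = 0.041) and the Il1a peak 9931 bp upstream (0.72 ± 0.20, adjusted p = 0.015). Also called in LBL vs PBP were the exonic Tnf peak (0.94 ± 0.26, adjusted p = 0.016), the Il1rn start site peak (1.31 ± 0.36, adjusted p = 0.012) and the Il12b peak 18823 bp upstream (1.06 ± 0.30, adjusted p = 0.016). In LL vs PP these peaks gave 0.67 ± 0.24 (adjusted p = 0.081), 0.43 ± 0.36 (adjusted p = 0.54) and 0.98 ± 0.35 (adjusted p = 0.078). The exonic Tnf peak stood at 39.4 and 40.2 CPM in LL and 24.0 and 34.5 in LBL, and the Il1rn peak at 20.0 and 11.3 in LL and 19.5 and 16.2 in LBL. The Il12b peak 18823 bp upstream stood at 23.0 and 16.1 CPM in LL and 20.8 and 26.4 in LBL. The LL and LBL libraries overlapped at the Il1rn and Il12b peaks and not at the Tnf peak. The 1 member lower in LBL vs PBP was the Il12b peak 17128 bp upstream, at 20.8 and 34.5 CPM in LBL against 45.8 and 52.8 in PBP (-0.79 ± 0.21, adjusted p = 0.010). This call was lost in DESeq2, and its log2 fold change ran from -1.24 to -0.51 over the alternatives. The peak stood at 37.9 and 39.9 CPM in PP, 29.0 and 42.1 in PL, 40.7, 37.9 and 45.1 in PBL, and 28.9 and 25.8 in LL. The LL vs PP count was 1 without PP 1_2 or PP 3_4, 2 without LL 1_2, and 3 without PBP 1_2, PBP 3_4, LBL 1_2 or LBL 3_4. The LBL vs PBP count was 3 without PBP 1_2, 2 without PBP 3_4, and 4 without LBL 1_2 or LBL 3_4.

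Repopulated and original microglia were compared at each stage. No member peak was called in PBP vs PP, PBL vs PL or LBL vs LL, where 0.16%, 0.0826% and 0.0506% of all peaks were called. DESeq2 called 0 members in each as well, and 3, 3 and 2 members had an unadjusted p under 0.05. At rest the widest gaps among the peaks described above were at Il12a 13257 bp upstream (0.83 ± 0.38, adjusted p = 0.44) and at the distal Il6 peak (-0.79 ± 0.45, adjusted p = 0.58). The 3 members with an unadjusted p under 0.05 at rest were this Il12a peak, the exonic Tnf peak and the Il1b peak beyond the end of the gene. The Tnf and Il1b peaks were lower in PBP, at -0.69 ± 0.31 (adjusted p = 0.43) and -0.58 ± 0.24 (adjusted p = 0.38). In PBL vs PL they gave -0.16 ± 0.17 and -0.23 ± 0.16. None of these was called, and SEs of this size leave room for sizeable differences. The test of the difference between the first LPS responses, PBL vs PBP against PL vs PP, also called 0 members, with 0.0746% of all peaks called, 0 members in DESeq2 and 1 member at an unadjusted p under 0.05.

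Counts were also summed over the peaks of a gene within 50 kb to give 1 value per locus. In PL vs PP 5 of the 7 loci rose, against 10.6% of all 13734 loci called, and in PBL vs PBP the same count rose, against 7.47%. Il12a rose by 0.89 ± 0.16 (adjusted p = 9.4e-05) in PL vs PP and 0.72 ± 0.13 (adjusted p = 4.7e-05) in PBL vs PBP. Tnf rose by 0.60 ± 0.19 (adjusted p = 0.027) and 1.18 ± 0.17 (adjusted p = 4.1e-07). The other loci called in both were Il1a, Il1rn and Il12b. Il6 gave 0.29 ± 0.16 (adjusted p = 0.24) and 0.37 ± 0.13 (adjusted p = 0.070), and Il1b gave 0.04 ± 0.12 (adjusted p = 0.88) and 0.07 ± 0.10 (adjusted p = 0.78). No member locus was called in LL vs PL or PBP vs PP, with 0.0437% and 0.116% of all loci called. In LBL vs PBL, with 1.21% called, Il12b fell by 0.44 on the log2 scale (SE 0.12, adjusted p = 0.035). The locus counts depend on the distance allowed: with peaks within 1 kb only, 1 locus rose in PL vs PP, 2 rose in PBL vs PBP, and none fell in LBL vs PBL. Il1b and Il12a had no peak within 1 kb, so they had no locus at that distance. The share of all loci called at that distance was not counted.

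**Figure D4:**
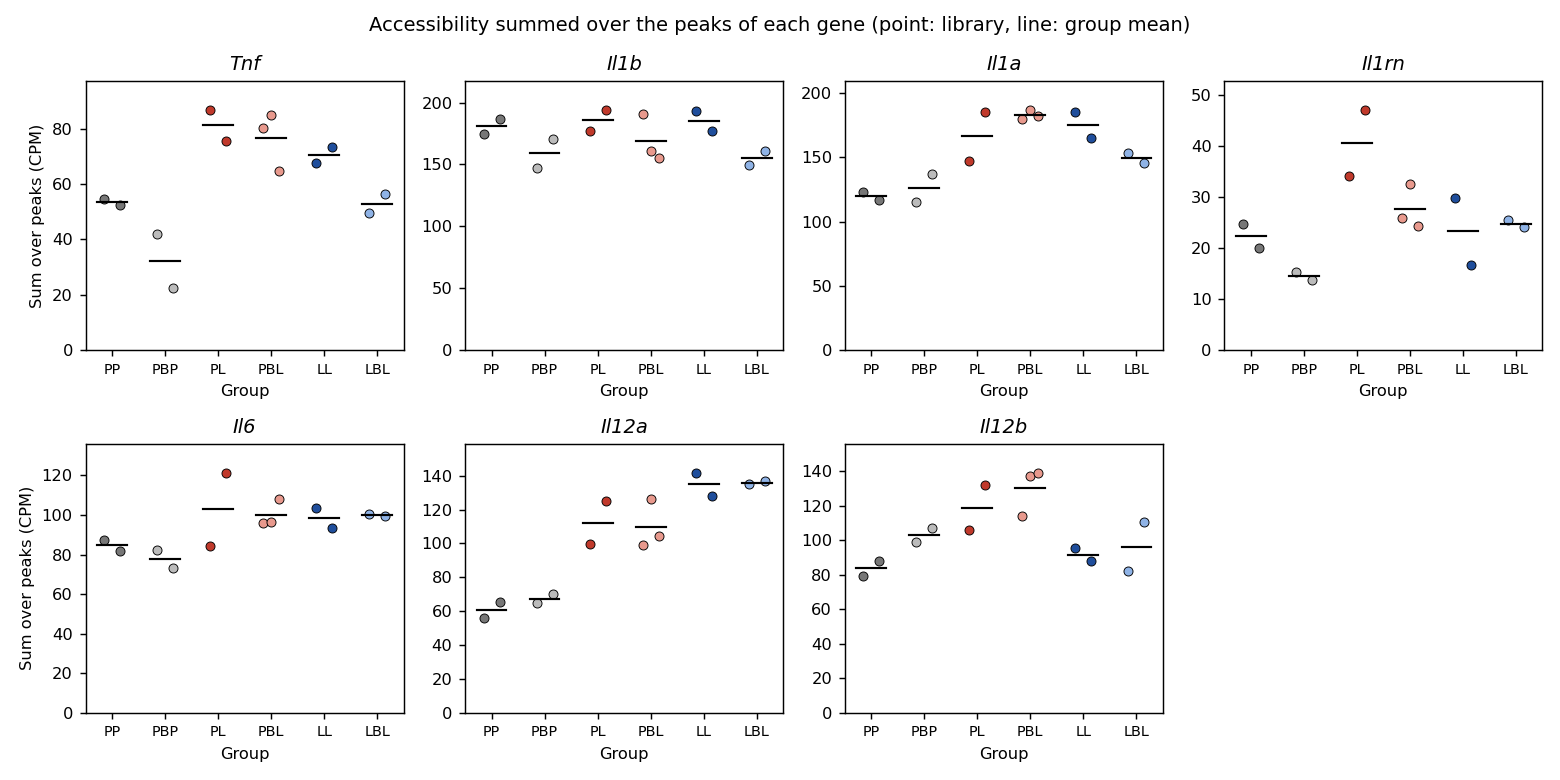
Accessibility in CPM summed over the peaks of each gene within 50 kb (y axis, from 0) in each library (points) of the 6 groups (x axis), with the group mean as a line. Il12a rises from 55.9 to 70.1 CPM in the PBS libraries to 98.9 CPM and above in every LPS library, while Il1b stays between 147 and 194 CPM throughout.

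Genes for related cytokines, and genes that process, receive or relay such cytokines, were taken from a list of 40, of which 36 had a tested locus. In PL vs PP 10 of the 36 rose and 0 fell, against the 10.6% of all loci called in either direction, with a median log2 fold change of 0.27 against -0.001 for all loci. In PBL vs PBP 8 rose and 0 fell, against 7.47% called, with a median of 0.15 against 0.003. Signal relay genes made up 6 of 17 in each comparison, and receptors gave 2 of 9 and 1 of 9, the latter near the share of all loci. Genes of processing and mRNA control gave 2 of 5 and 1 of 5, and 0 of 5 cytokine relatives were called in either. In PL vs PP the smallest p-values belonged to Birc3, an inhibitor of cell death in TNF receptor signalling (1.00 ± 0.17, adjusted p = 1.4e-05), the kinase Jak1 (0.56 ± 0.10, adjusted p = 5.9e-05), the ubiquitin ligase Traf6 of interleukin 1 receptor signalling (0.68 ± 0.13, adjusted p = 0.00019) and the TNF receptor Tnfrsf1b (0.42 ± 0.09, adjusted p = 0.0012). In PBL vs PBP they belonged to Socs3, the feedback inhibitor of IL-6 signalling (0.61 ± 0.08, adjusted p = 1.6e-07), Birc3 (0.86 ± 0.14, adjusted p = 2.7e-06), the kinase Jak2 (0.64 ± 0.12, adjusted p = 0.00015) and Zc3h12a, an RNase that degrades cytokine mRNA (0.40 ± 0.08, adjusted p = 0.00038). None of the 36 was called in LL vs PL or PBP vs PP, and in LBL vs PBL only Birc3 was called, lower by a log2 fold change of -0.57 (adjusted p = 0.0055).

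Within 50 kb of the member genes lay 21 peaks assigned to other genes, all of them tested. In PBL vs PBP, where 6.74% of all peaks rose, 3 of them did: a peak assigned to Il1f10, an interleukin 1 family gene beside Il1rn (1.66 ± 0.34, adjusted p = 0.00012), a peak 4513 bp upstream of Lta, the lymphotoxin gene beside Tnf (0.70 ± 0.24, adjusted p = 0.042), and a peak 1556 bp past a start site of Nfkbil1 (0.68 ± 0.21, adjusted p = 0.023). In PL vs PP, where 2.69% of all peaks fell, 3 others did, all over start sites: Nfkbil1 (-0.74 ± 0.16, adjusted p = 0.00091), Ddx39b (-0.61 ± 0.17, adjusted p = 0.012) and Psd4 (-0.82 ± 0.27, adjusted p = 0.042). Over all peaks within 1 kb of a start site the median in PL vs PP was -0.10, and PL 3_4 had the lowest share of counts in promoters; the part of this in the falls was not tested.

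The Il12a peak 13257 bp upstream had the smallest p of the members in PBL vs PBP, and the peaks most like it over the 13 libraries were sought by Pearson's r of log2 CPM. Among the closest, at most 1 per gene, were peaks assigned to Mir5123 (r = 0.981), Tmem131l (r = 0.978), Il15ra, a cytokine receptor subunit (r = 0.976), and Rab1a (r = 0.975). The Il15ra peak averaged 49.0 CPM in PP, 58.0 in PBP and 93.5 to 100.2 in the 4 LPS groups. Among the members the closest was the Il12a peak 27996 bp upstream (r = 0.907). The libraries share their LPS grouping, which alone makes such values high, and they are given as a description.

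The distance limit left out 4 peaks assigned to these genes, 3 at Il6 and 1 at Il12b. The member nearest the limit, 43972 bp upstream of Il12a, stood between 3.56 and 7.11 CPM in all libraries. The nearest outside it, 64460 bp upstream of Il6, averaged 30.6 CPM in PP, 39.9 in PBP, 45.8 in PL, 39.2 in PBL, 57.4 in LL and 41.1 in LBL.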

How the data were processed

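The authors deposited 1 table of expected or estimated counts over a common set of peaks, not normalized and in steps of 0.5. Tools listed in the submitters' processing notes include MACS2 2.1.1 and Bowtie2 2.2.6, and the builds are GRCm38 and mm10. The counting tool, and whether reads were shifted for the transposase, are not given there. Distances to start sites are in bp, per the file headers. The members and lists were chosen with earlier results of these data known.

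After rounding, edgeR 4.0.16 (R 4.3.3) was run on all 13 libraries. Its filterByExpr step, at a minimum count of 10, kept 37516 of 38620 peaks. TMM scaling and a robust quasi-likelihood fit of 6 group means followed. Tests were two-sided and p-values were adjusted by Benjamini and Hochberg's method across all peaks or loci tested, with 0.05 as the threshold and no fold required. Each SE was obtained as the size of the log2 fold change over the root of F. CPM were scaled with the TMM factors. Depth ran from 927840 to 2772688 counts. Alternatives were DESeq2 1.42.0, RLE factors, no filter, each library left out, a pool-name block, isolation day, the LBL libraries summed, only the compared groups, and other locus distances.

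All 34 member peaks are given with their values. At most 4 loci of the pathway list are named per comparison, those with the smallest p among the called, and the 5 peaks most like the leading member by Pearson's r, of which 1 is not reported here. Replicate pairs had a chi-square per degree of freedom of 0.996 to 1.2, and PL had 2.04. For LBL it was 0.996 over 26045 peaks, which is within counting noise if every count is an independent event. LBL was kept as 2 libraries.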

Additional observations from a re-analysis of the deposited data

How the results depend on the processing

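No called member peak changed direction under any alternative. The counts below are given without the share of all peaks called in the same fit. A lower count is thus not shown to be particular to these genes. The count of 10 peaks in PBL vs PBP stayed within 1.5 times under every setting, from 7 to 11 with a library left out. In DESeq2 the count was 2 in PL vs PP (16 members had an adjusted p), 0 in LL vs PL, 0 in LBL vs PBL, 1 in LL vs PP (16 members had an adjusted p) and 2 in LBL vs PBP. With the LBL libraries summed as 1 it was 3 in PL vs PP, 0 in LL vs PL and 3 in LL vs PP. With only the compared groups in the fit it was 2 in PL vs PP and 0 in LL vs PL. With a library left out it ran from 1 to 6 in PL vs PP, 0 to 2 in LL vs PL, 0 to 4 in LBL vs PBL, 1 to 5 in LL vs PP and 2 to 7 in LBL vs PBP; the cause was not tested. Comparisons with 0 calls kept 0 under every alternative. Among single peaks, 601 alternative values kept their side of the threshold, 126 lost the call and 15 gained it. The summed loci called fell from 5 to 3 in PL vs PP with peaks within 10 kb and to 1 within 1 kb. They fell from 5 to 2 in PBL vs PBP within 1 kb, and from 1 to 0 in LBL vs PBL at both distances. Fewer peaks were summed at these distances. Il12a had no peak within 10 kb, and Il1b had none within 1 kb. The cause of the change was not tested.

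With the pool name as a replicate block, the counts were 7 in PL vs PP, 11 in PBL vs PBP, 2 in LL vs PL, 3 in LBL vs PBL, 5 in LL vs PP, 7 in LBL vs PBP and 0 elsewhere. Correlations of the deviations of same-named pools ran from -0.017 to 0.162 and were not over 0.1 in every pair, so the pools were not treated as paired. PBS libraries held as few as 1.5 counts at a member peak, which limits the precision there.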
